A study of Mus musculus with 2 samples.

Results

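Non-hypertrophic chondrocytes, cartilage cells with high Col2a1 and little or no Col10a1, were selected from the scRNA-Seq data of mouse long bone periosteum by their own transcript counts. A cell was kept with at least 500 genes, at least 500 unique molecular identifiers (UMIs, each marking 1 captured transcript), and at most 10% mitochondrial UMIs. The gate then required Col2a1 of 10 or more UMIs, at least 2 of the 5 genes Col9a1, Col9a3, Acan, Cnmd, and Matn3 at 2 or more UMIs, Col10a1 under 20 UMIs, and no UMI of Ptprc, which encodes CD45. It took 186 cells of 13591 barcodes, of 9169 that passed quality control, and of 5410 of those without Ptprc. Library 1 held 26 of them, 0.789% of its Ptprc-negative cells (exact 95% binomial interval, 0.516 to 1.15), and library 2 held 160, 7.57% (6.48 to 8.78).

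The study isolated periosteal cells from femurs and tibias of C57BL6 WT mice 4 weeks of age and sorted them as CD45-CD31-Ter119-. Cells were profiled in 2 10x Genomics libraries, replicates 1 and 2 of a single condition, with no treatment or second genotype to compare. The labels do not say how many mice were pooled in a library. Library 1 held 9932 barcodes and 100808649 UMIs, and library 2 held 3659 barcodes and 33306452 UMIs.

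Chondrocytes surround themselves with a matrix of type II collagen fibrils, trimmed by collagens IX and XI, and of the sulfated proteoglycan aggrecan bound to hyaluronan. In a growing long bone, resting cells feed columns of flat proliferating cells, which leave the cell cycle, pass through a prehypertrophic stage marked by the ligand Ihh, and enlarge to hypertrophic cells that produce type X collagen. At the joint surface a separate layer secretes lubricin, the product of Prg4. The SOX9, SOX5, and SOX6 transcription factors drive the cartilage matrix genes.

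The gated cells held more UMIs than most other cells. In library 1 a gated cell held 6789 to 47831 UMIs with a median of 31883, and a median of 4894.5 genes. In library 2 it held 1549 to 69001 UMIs with a median of 22742.5, and a median of 4137.5 genes. The other Ptprc-negative cells had medians of 8821.5 UMIs in library 1 and 6107 in library 2. The libraries shared 8 barcodes, none of which belonged to a gated chondrocyte. Counts of reporter transcripts were present although the labels read WT. tdTomato had 18 UMIs in 6 of the 26 gated cells of library 1 and 582 UMIs in 78 of the 160 of library 2, and EGFP had 0 UMIs in library 1 and 871 UMIs in 29 cells of library 2. Cells of both sexes were present in each library, with at least 3 Xist UMIs in 6 and 47 gated cells and at least 3 UMIs of Y-linked genes in 12 and 53.

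Gated cells also carried transcripts typical of other cell types, in numbers that depend on the gene and the minimum. Bglap of 20 or more, Hbb-bs of 100 or more, Acta1 of 20 or more, or Cd79a of 3 or more UMIs (osteoblast, red cell, muscle, and B cell genes) was found in 1 of 26 cells of library 1 and 13 of 160 of library 2. Dcn of 10 or more UMIs was found in 2 and 61 cells, Col1a1 of 50 or more in 1 and 23, and Spp1 of 100 or more in 0 and 16. Some averages rested on single cells. Of the 1735 Col1a1 UMIs in gated cells of library 1, 96.7% were in 1 cell, and of the Hbb-bs UMIs of library 2, 88.7% were in 1 cell. At least 3 Xist UMIs together with at least 3 UMIs of Y-linked genes were found in 0 of 26 and 4 of 160 gated cells, and at least 1 of each in 1 and 7, which can reveal only doublets of cells of different sex. What part doublets and free RNA had in the other transcripts was not tested. A doublet caller marked 0 gated cells, but it marked 0.0691% of the 2893 cells of library 2 and thus had not worked there.

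At the edges of the gate, Col2a1 was between 10 and 14 UMIs in 2 gated cells of each library and between 5 and 9 UMIs in 1 excluded cell of each. All 5 further markers were reached by 24 of 26 and 109 of 160 cells, and exactly 2 of them by 1 and 13 cells. In library 2, 13 cells that reached only 1 marker stayed outside, with a median of 73 Col2a1 UMIs against 31 in the 13 just inside. Col10a1 was at 0 in 18 of 26 and 131 of 160 gated cells. It lay between 10 and 19 UMIs in 2 cells of each library, and in the excluded range of 20 to 39 UMIs there were 1 cell in library 1 and 8 in library 2. The 2 cells just under the Col10a1 limit were unlike each other in each library. In library 1 they held 1727 and 13 Col2a1 UMIs beside 12 and 15 of Col10a1. In library 2 they held 1309 and 26 Col2a1 UMIs beside 14 and 10 of Col10a1. The second cell of each pair thus did not have high Col2a1. The 8 cells just above the limit in library 2 had a median of 504.5 Col2a1 UMIs.

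To describe the transcriptome of these cells, UMIs were summed over the gated cells of a library and scaled to counts per 1000000 UMIs of the class (CPM). The gated cells were set against all other Ptprc-negative cells of the same library, 3270 in library 1 and 1954 in library 2. A gene is called higher or lower where log2((CPM + 10)/(CPM + 10)) was at least 2 or at most -2, a 4-fold difference, in both libraries. The added 10 CPM understates the difference of low genes. The gate used counts of these same cells, so the comparison is a description and carries no test. Of 16754 genes with at least 10 UMIs, 120 (0.716%) were higher and 176 (1.05%) were lower. With TMM scaling in place of total UMIs the counts were 153 higher and 140 lower. The counts moved further with the added CPM or with 1 library left out, as given in the last section. Of all calls 40.5% were higher, and this share was 24.7% with 1 CPM added and 55.8% with 50 CPM added. Without the gated cells that carried transcripts of other types they were 118 and 195, and without those with a reporter UMI 101 and 194, alternatives added after the data had been seen. The median over all genes was -0.04 in library 1 and -0.10 in library 2 on the log2 scale. The other cells differed between the libraries, with Hbb-bs of 100 or more UMIs in 1144 of 3270 cells of library 1 and 102 of 1954 of library 2.

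**Figure D1:**
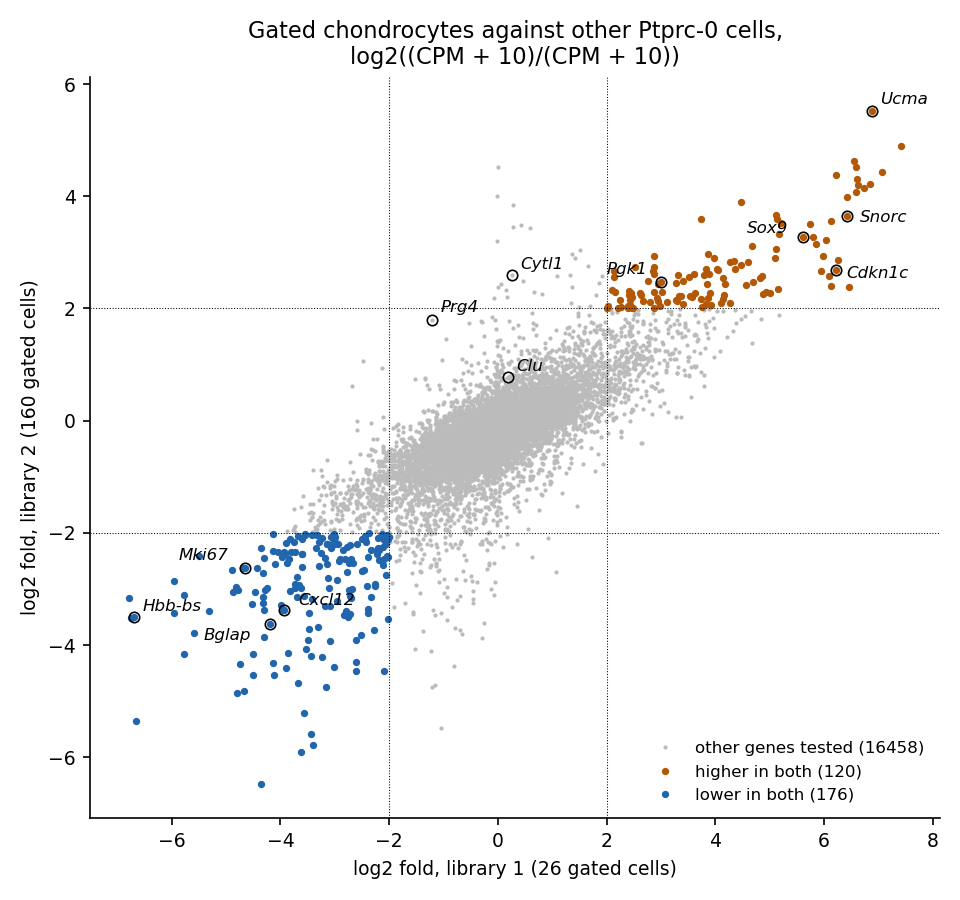
Log2 fold of each of 16754 genes in gated chondrocytes over other Ptprc-negative cells, with 10 CPM added, in library 1 (x axis) and library 2 (y axis). Orange points are the 120 genes past 2 and blue points the 176 genes past -2 in both libraries (dotted lines), circles mark named genes, and Ucma stands at the upper right with 6.87 and 5.53.

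Cartilage collagens together summed to 85410 CPM in the gated cells of library 1 and 56786 CPM in those of library 2, against 2100 and 6387 CPM in the other cells. Col2a1, the type II collagen gene (ENSMUSG00000022483, chr15:97975602-98004695, mm10, minus strand), ranged in library 1 from 12 to 3151 UMIs per cell with a median of 1358 and in library 2 from 12 to 2924 with a median of 772. Its summed level was 47292 CPM in library 1 and 34384 CPM in library 2, against 437 and 1940 CPM in the other cells, as the gate required. Over all genes tested 0.716% were higher and 1.05% lower. Of the 8 cartilage collagen genes, 7 were higher (Col2a1, Col9a1, Col9a2, Col9a3, Col11a1, Col11a2, and Col27a1) and Col10a1 was lower. The gate used Col2a1, Col9a1, Col9a3, and Col10a1 of these, so the sum and the count of the list are largely set by it. All 4 genes outside the gate were higher. Of them Col9a2, a chain of the type IX collagen on fibril surfaces, reached 5123 and 3106 CPM against 42.6 and 147 CPM. Col27a1, a fibrillar collagen of growth plate cartilage, stood at 1807 and 695 CPM, which was 161-fold (95% interval of counting error, 146 to 178) and 20-fold (18.4 to 21.8) the level of the other cells. Col11a1 and Col11a2 were also abundant in the Bglap-high cells described below, where Col11a1 was at 4898 and 2312 CPM against 9819 and 4869 CPM in the gated cells.

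Of 24 other cartilage matrix genes, 17 were higher (0.716% of all genes tested were) and none was lower, with medians of 6.0 and 2.59. Acan, Cnmd, and Matn3 were among the 17 through the gate. Snorc, a small proteoglycan of cartilage (ENSMUSG00000026258, chr1:87470271-87475482, plus strand), was found in 25 of 26 and 155 of 160 cells, with medians of 306.5 and 156.5 UMIs per cell, and its level was 11033 and 7324 CPM against 119 and 576 CPM. Ucma, a vitamin K-dependent protein of resting cartilage (ENSMUSG00000026668, chr2:4976122-4985748, plus strand), had the largest log2 fold of any gene outside the gate, by the smaller of the values in the libraries. It ranged from 0 to 151 UMIs per cell with a median of 36 in library 1 and from 0 to 246 with a median of 31 in library 2, and its level was 1533 and 1986 CPM against 3.17 and 33.2 CPM. The gated cells thus held 484-fold (410 to 576) and 59.8-fold (55.1 to 64.9) more Ucma. Scrg1 came next, at 1245 and 1014 CPM against 3.45 and 31.2 CPM, followed by C1qtnf3, a secreted protein of the adiponectin family, at 912 and 678 CPM against 2.43 and 23.0 CPM.

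Prelp, Fmod, and Epyc encode small leucine-rich proteoglycans, a family found on collagen fibrils. Prelp was at 1345 and 667 CPM in the gated cells against 9.48 and 118 CPM in the other cells. Fmod was at 1809 and 1185 CPM against 10.7 and 219 CPM. Epyc, the epiphycan gene, was at 868 and 360 CPM against 2.62 and 21.4 CPM. Epyc was unevenly spread in library 2, where 101 of 160 cells had a UMI, against 25 of 26 in library 1. Lum and Dcn of the same family were not called, with Lum at 460 and 521 CPM against 65.2 and 692 CPM and Dcn at 180 and 1077 CPM against 190 and 3122 CPM. Comp, which bridges collagen and proteoglycans, was at 6632 and 5058 CPM against 77.5 and 687 CPM, and Hapln1, the link protein that ties aggrecan to hyaluronan, was at 7878 and 4546 CPM against 111 and 479 CPM. Matn1, a matrilin, was not called, since its log2 fold of 4.37 in library 1 was 1.75 in library 2, with a UMI in 22 of 26 and 71 of 160 cells. Mgp, an inhibitor of mineralization, was at 4984 and 7134 CPM against 1007 and 3030 CPM and was not called either.

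To show the sequence upstream of genes that were high together, 2 promoters are given from RefSeq (GRCm38.p6), each the 250 bases before a start site. Matn3 is a gene of the gate, so its high level was set by the choice of cells. The capitals mark GGGCGG or its reverse complement (a GC box) in Matn3, chr12:8947679-8947928, plus strand, and ACAAAG or ACAATG or a reverse complement (forms of the core recognized by SOX proteins) in Epyc, chr10:97643818-97644067, plus strand.
Matn3: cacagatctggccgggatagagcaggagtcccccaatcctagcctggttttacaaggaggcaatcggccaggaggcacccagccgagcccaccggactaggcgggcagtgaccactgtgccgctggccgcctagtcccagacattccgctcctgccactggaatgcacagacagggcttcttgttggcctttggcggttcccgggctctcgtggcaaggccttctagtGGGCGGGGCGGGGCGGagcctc
Epyc: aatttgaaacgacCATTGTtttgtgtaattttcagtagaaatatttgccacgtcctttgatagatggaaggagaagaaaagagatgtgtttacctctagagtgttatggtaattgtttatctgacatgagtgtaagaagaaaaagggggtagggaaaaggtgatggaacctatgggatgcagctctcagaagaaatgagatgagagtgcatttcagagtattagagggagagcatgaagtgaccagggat
The Matn3 matches overlap one another and begin 22, 17, and 12 bases before the start, and the Epyc match begins 237 bases before it. Epyc has a second window, not shown, at chr10:97646853-97647102. It holds 3 such matches, which begin 209, 202, and 147 bases before its start. Of the 120 higher genes, 80 had such an entry, with 100 windows of 300 bases (250 before to 50 after the start) among them. GGGCGG was found on either strand in 60 of the 100 windows, 60%, against 35.7% of all 32851 windows. ACAAAG or ACAATG was found in 18%, against 28.6% of all windows. These matches describe letters in the windows.

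Among the transcription factors of chondrogenesis, Sox9, Sox5, and Foxa3 of 19 tested were higher (0.716% of all genes were) and none was lower. The list medians were 1.88 and 0.40. Against Col10a1-high cells, defined below, none of 18 tested was called, where 0.164% of all genes were higher and 0.451% lower. Sox9, the master regulator of cartilage fate, was found in 25 of 26 and 150 of 160 cells, at medians of 20 and 10.5 UMIs per cell. Its level was 931 and 599 CPM against 9.17 and 53.2 CPM in the other cells. Sox5 was at 111 and 97.5 CPM against 2.58 and 9.66 CPM. Sox6 did not keep a direction, since its 62.0 and 50.6 CPM in the gated cells stood against 91.9 CPM in the other cells of library 1 and 20.4 CPM in those of library 2. Runx2, required for hypertrophy and bone formation, was at 106 and 61.9 CPM against 16.4 and 38.4 CPM.

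Of 17 genes that sulfate and build glycosaminoglycan chains, Papss2, Slc26a2, Xylt1, and Chst11 were higher, none was lower, and 13 were not called. Over all genes tested against the other cells 0.716% were higher and 1.05% lower. Against Col10a1-high cells, which passed the same gate but for Col10a1 of 20 or more UMIs, none of the 17 was called, where 0.164% of all genes tested were higher and 0.451% lower. Against the other cells 15 of the 17 were above 0 in both libraries, with medians of 2.16 and 1.34. Papss2, which makes the sulfate donor, was at 509 and 284 CPM against 4.32 and 19.2 CPM. Slc26a2, the sulfate transporter whose loss causes chondrodysplasia, was at 314 and 144 CPM against 9.68 and 14 CPM. Chst11, a chondroitin sulfotransferase, was at 561 and 245 CPM against 12.4 and 19.5 CPM. Of the 29 genes for folding and secreting collagen, 27 were above 0 in both libraries, while P4ha2 and Plod2, a prolyl and a lysyl hydroxylase, were the 2 past 4-fold in both. The medians of that list were 2.27 and 0.86, and none of its 29 genes was called against Col10a1-high cells. Serpinh1, the collagen chaperone, was at 4468 and 2795 CPM against 255 and 1176 CPM in the other cells, and at 3676 and 3503 CPM in Bglap-high cells, which make type I collagen.

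Signaling genes of the growth plate were detected, and most were not called against the other cells. In the Ihh and PTHrP pathway none of 13 genes was higher or lower there, with medians of 1.16 and 0.23. The other cells include Col10a1-high cells, which held 146 of their 160 Ihh UMIs in library 1 and 416 of 488 in library 2. Against Bglap-high cells Ihh and Ptch1 of 12 were higher (1.48% of all genes were). Against Dcn Col3a1 cells, defined below, Ihh, Pth1r, and Ptch1 of 13 were higher (0.865%) and Gas1 and Cdon lower (2.15%). Against Col10a1-high cells none of 12 was called. Pth1r, the receptor of PTHrP, was found in 25 of 26 and 142 of 160 gated cells, at 1957 and 778 CPM against 44.9 and 203 CPM in the other cells, and its log2 fold of 5.16 in library 1 was 1.89 in library 2. Ihh had a UMI in 11 of 26 and 34 of 160 cells, with levels of 198 and 68.4 CPM against 3.25 and 25.6 CPM. Ptch1, a receptor and target of hedgehog signaling, was at 115 and 110 CPM against 11.7 and 21.9 CPM. Pthlh, which encodes PTHrP, had 0 UMIs in library 1 and was found in 22 of 160 cells of library 2.

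Of all genes tested against the other cells, 0.716% were higher and 1.05% lower. Of 12 genes of the FGF and natriuretic peptide pathways, Fgfr3, Fgfrl1, and Prkg2 were higher and none was lower, with medians of 0.31 and 0.42. None of the 10 tested against Col10a1-high cells was called, where 0.164% of all genes were higher and 0.451% lower. Fgfr3, the receptor that restrains growth plate proliferation and is mutated in achondroplasia, was at 307 and 120 CPM against 3.14 and 8.24 CPM. Prkg2, the kinase downstream of C-type natriuretic peptide, was at 136 and 102 CPM against 1.83 and 13.2 CPM. The BMP and GDF list had Id1, a direct target of BMP signaling, higher among 21 genes, at 368 and 355 CPM against 11.6 and 52.4 CPM. In the Wnt list Rspo3, a potentiator of Wnt receptors, was higher among 17 genes, at 133 and 65.8 CPM against 9.5 and 8.82 CPM. Of 11 IGF pathway genes, Igfbp4 was lower and none was higher, at 7.75 and 47.5 CPM against 117 and 275 CPM. Cdkn1c, the cyclin-dependent kinase inhibitor p57, was the only one of 6 such inhibitors that was higher. It ranged from 0 to 392 UMIs per cell in library 1 (median 28.5) and from 0 to 372 in library 2 (median 5), and its level was 3126 and 1004 CPM against 32.4 and 147 CPM. Against Col10a1-high cells none of the 6 inhibitors was called. Together the 6 summed to 3443 and 1768 CPM in the gated cells and 2176 and 3918 CPM in Col10a1-high cells.

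Glycolysis genes were largely above 0 against each comparison class. Slc2a1, Pgk1, Pgam1, Eno1, and Slc16a3 of 18 were higher than in the other cells (0.716% of all genes were), and none was lower. Of the 18, 15 were above 0 in both libraries, with medians of 1.92 and 1.59. Pgk1, the first ATP-forming enzyme of the pathway, was at 864 and 767 CPM against 99.7 and 131 CPM. Slc2a1, the glucose transporter GLUT1, was at 82.7 and 81.3 CPM against 3.35 and 11.0 CPM, and Slc16a3, the lactate exporter MCT4, was at 198 and 140 CPM against 3.27 and 10.1 CPM. Ldha, lactate dehydrogenase, reached 1958 and 1986 CPM against 322 and 498 CPM, with a log2 fold of 2.57 in library 1 and 1.97 in library 2, and so was not called. Against Bglap-high cells 8 of 18 genes were higher (1.48% of all genes tested were) and against Dcn Col3a1 cells 6 of 18 (0.865%). Against Col10a1-high cells all 17 tested were above 0 in both libraries with Slc16a3 higher (0.164%). Those classes are defined below. Pgk1, Pgam1, Eno1, and Gapdh have near-identical copies in the genome with which reads can be shared, so their levels are uncertain. In the hypoxia list Bnip3, Car12, and P4ha2 of 15 were higher than in the other cells, with medians of 0.82 and 0.68. Vegfa, at 40.0 and 104 CPM against 18.3 and 61.4 CPM, was not called. None of the 15 was called against Col10a1-high cells.

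Against Col10a1-high cells none of 14 ion transport genes was called, where 0.164% of all genes were higher and 0.451% lower. Against the other cells, where 0.716% of all genes were higher and 1.05% lower, ion transport genes split by member. Fxyd2, a regulator of the sodium pump, Slc26a2, Trpv4, a cation channel of mechanically loaded cartilage, and Slc38a3, an amino acid transporter, were higher, and Atp1b1, Aqp1, and Car2 were lower, of 14 tested. Fxyd2 was at 2124 and 2004 CPM against 8.62 and 98.3 CPM, and Trpv4 at 101 and 105 CPM against 1.14 and 9.03 CPM. Of the 18 Hox and hindlimb genes tested and the 15 matrix proteases and inhibitors none was called in either direction. Of 21 genes that the study names, Sox9 was higher and Cxcl12 and Bglap were lower. Lrp1, the endocytic receptor, was at 130 and 188 CPM in the gated cells, 16.1 and 189 CPM in the other cells, and 636 and 645 CPM in Dcn Col3a1 cells. Anpep, an aminopeptidase, was found in 1 of 26 and 6 of 160 gated cells, at 1.29 and 1.81 CPM, against 114 and 119 CPM in Dcn Col3a1 cells.

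Some genes of other lineages were called lower, where 1.05% of all 16754 genes tested were lower. The lists were not tested against one another. Of the osteoblast list 3 of 10 genes were lower than in the other cells (Bglap, Bglap2, and Dmp1), of the B cell list 5 of 7, of the erythroid list 7 of 7, of the neutrophil list 6 of 8, of the muscle list 3 of 7, and of the monocyte and macrophage list 1 of 7. None of these genes was higher. The osteoblast list summed to 5276 and 5496 CPM, led by Col1a1, against 11141 and 32952.5 CPM in the other cells. The erythroid list summed to 1136 and 2467 CPM, led by Hbb-bs, the neutrophil list to 447 and 33.8 CPM, led by S100a9, and the muscle list to 199 and 278 CPM, led by Tnni2. The B cell list summed to 12.9 and 41.8 CPM, with 3 of its 7 genes at 0 in library 1. The 6 endothelial genes summed to 0 and 3.10 CPM, with 6 and 4 of them at 0. S100a9 was spread over 25 of 26 cells in library 1 with a maximum of 11 UMIs, and over 44 of 160 in library 2 with a maximum of 3. Of the fibroblast list none of 10 was called, and its sum was 858 CPM in library 1, led by Lum, and 2324 CPM in library 2, led by Dcn, against 487 and 9972 CPM in the other cells and 36631 and 41360 CPM in Dcn Col3a1 cells. The tenocyte list had Col12a1 of 7 higher (0.716% of all genes were), and the mural list had none, with Cspg4 at 253 and 141 CPM against 6.88 and 32.5 CPM. The part of other cells in these values was not tested.

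Col10a1-high chondrocytes, 79 and 110 cells that passed the same gate but held Col10a1 of 20 or more UMIs, were the closest class. They were shallower, with medians of 8378 and 14487.5 UMIs and 1322 and 2727 genes. Of 12207 genes tested, 20 (0.164%) were higher in the gated cells and 55 (0.451%) were lower, with medians over all genes of 0.06 and -0.07. Averaging single-cell CPM in place of summing gave 43 higher and 42 lower, so the excess of lower genes depends on that choice. Erythroid genes summed to 31168 and 157 CPM in the Col10a1-high cells, where 4 of 79 cells of library 1 held Hbb-bs of 100 or more UMIs, and without such cells the counts were 20 higher and 60 lower. None of the 8 cartilage collagens apart from Col10a1 was called. Levels of Col2a1 were 47292 and 34384 CPM against 21578 and 18380 CPM, a ratio of 2.19 (2.15 to 2.23) and 1.87 (1.85 to 1.89). In the other matrix list 5 genes were higher, Ucma, Fmod, Prelp, Scrg1, and Vit. Ucma was 9.99-fold (8.42 to 11.9) and 7.09-fold (6.49 to 7.76) the level of the Col10a1-high cells, and Prelp 14.4-fold (11.6 to 18.1) and 7.50-fold (6.41 to 8.83). Igfbp7 was also higher, at 326 and 1855 CPM against 65.3 and 449 CPM, with a log2 fold of 2.02 in library 2 just past the threshold. In the 132 gated cells of library 2 with Prg4 under 10 UMIs it was at 1611 CPM, which is under 4-fold. Gdf10, a TGF-β family ligand, was higher at 69.8 and 64.0 CPM against 1.04 and 6.43 CPM, and since the first of these levels is 1 UMI, its ratio of 67.3 in library 1 has an interval of 11.6 to 2706. Gdf5, a joint morphogen, was lower at 1.29 and 8.51 CPM against 66.3 and 70.7 CPM, with 1 UMI in the gated cells of library 1 and a ratio there of 0.019 (0.00049 to 0.11).

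Against Col10a1-high cells 0.451% of all genes tested were lower. Of 11 genes of the hypertrophic program 3 were lower (Col10a1, which the gate limits, Mmp13, and Spp1), none was higher, and 8 were not called. A log2 fold below 0 in both libraries was found for 9 of the 11. Mmp13, the collagenase of cartilage resorption, was at 14.2 and 80.8 CPM against 3110 and 1426 CPM. Spp1, osteopontin, was at 171 and 3239 CPM against 72504 and 46971 CPM, and 23.7% of its gated UMIs in library 2 were in 1 cell. Ffar4, a receptor of long-chain fatty acids, had no UMI in any gated cell against 207 and 234 CPM, which was at least 53.5-fold lower in library 1 and at least 302-fold lower in library 2 at a limit of 3 counts per library. Mgp was at 4984 and 7134 CPM against 49031 and 20700.2 CPM, and the ratio of gated to Col10a1-high cells was 0.10 (0.098 to 0.11) and 0.34 (0.34 to 0.35). Acan, Hapln1, and Ihh did not keep a direction. Ihh was at 198 and 68.4 CPM against 151 and 223 CPM.

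Among the leading higher genes against Col10a1-high cells, Col1a1 and Col1a2 rested on a few cells. Col1a1 was at 2241 and 1762 CPM against 25.9 and 215 CPM, but the gated medians were 0.5 and 1 UMI per cell. Without the gated cell with the most Col1a1 in each library, an alternative added after the data had been seen, its mean log2 fold over the libraries fell from 4.47 to 1.98 and that of Col1a2 from 3.18 to 1.56. Pcolce, an enhancer of procollagen processing, was spread more widely, in 18 of 26 and 121 of 160 cells, at 137 and 358 CPM against 12.4 and 31.6 CPM. EGFP also differed between the classes in library 2, at 225 CPM in the gated and 2190 CPM in the Col10a1-high cells. Its part in these differences was not tested.

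**Figure D2:**
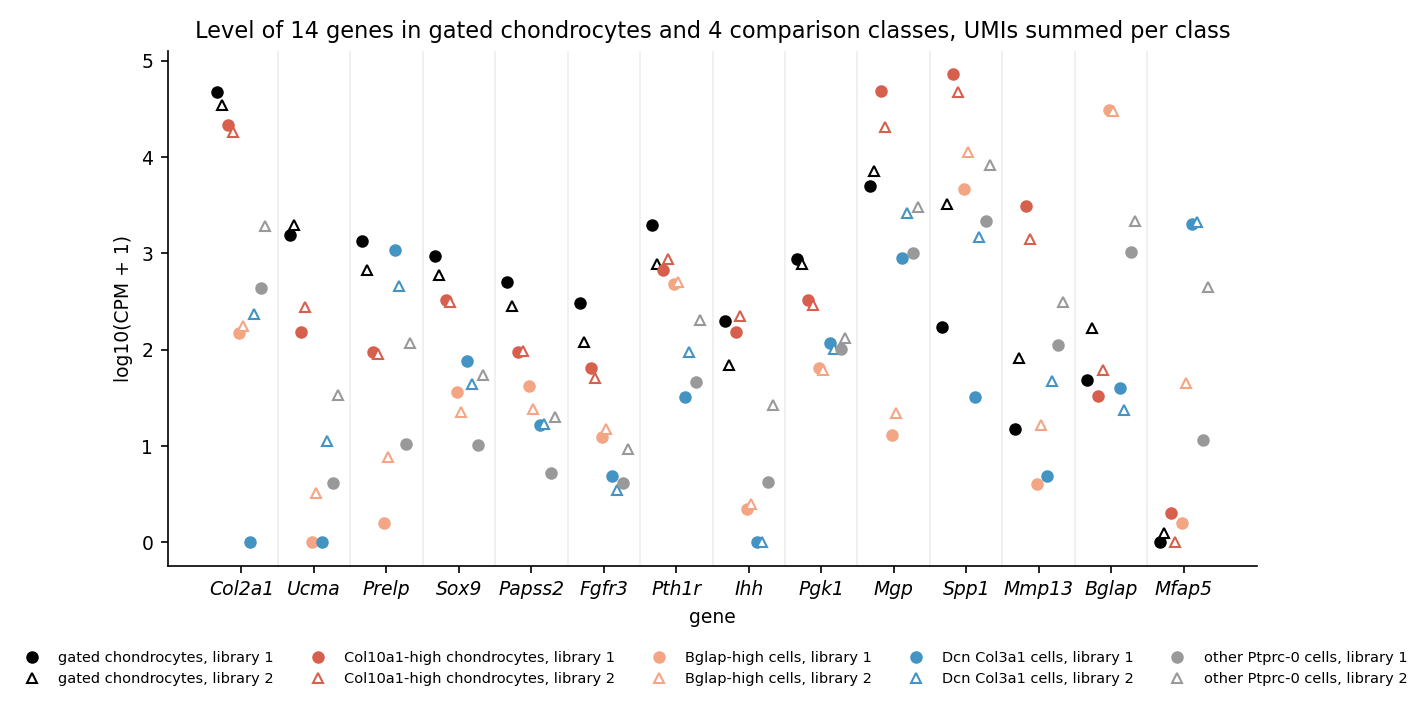
Level of 14 genes as log10(CPM + 1), UMIs summed per class, in gated chondrocytes and 4 comparison classes (colors), with filled circles for library 1 and open triangles for library 2. Ucma is at 1533 and 1986 CPM in gated cells, above every comparison class, while Spp1 and Mmp13 are highest in Col10a1-high chondrocytes and Bglap is highest in Bglap-high cells.

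Bglap-high cells (Bglap of 20 or more and Col1a1 of 50 or more UMIs, 53 and 88 cells) and Dcn Col3a1 cells (both genes at 10 or more UMIs, Bglap under 20 and Adipoq under 2, 20 and 374 cells) were the other like classes. Against Bglap-high cells, 178 of 12062 genes (1.48%) were higher in the gated cells and 117 (0.97%) were lower. Against Dcn Col3a1 cells, 112 of 12953 (0.865%) were higher and 278 (2.15%) were lower. With TMM scaling the latter became 163 and 229. Snorc led the higher genes against Bglap-high cells, where it was at 1.83 and 18.6 CPM. Mgp, at 4984 and 7134 CPM, was at 12.2 and 20.8 CPM there. The lower genes began with Bglap, at 47.8 and 165 CPM against 30934 and 29893 CPM, of which 70.3% and 53.8% in the gated cells came from 1 cell of each library. Against Dcn Col3a1 cells the lower genes began with Mfap5, a microfibril protein, with 0 and 1 UMI in the gated cells against 2027 and 2099 CPM. Matn1, Il17b, and Ppa1 were among the higher genes there. Il17b, an IL-17 family ligand, was at 875 and 391 CPM in the gated cells and had no UMI in the Dcn Col3a1 cells of library 1 and 0.254 CPM in those of library 2. Of 11 IGF pathway genes, 10 were tested against Dcn Col3a1 cells and 5 were lower (Igf1, Igfbp3, Igfbp4, Igfbp5, and Igfbp6).

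To see how the gated cells differed among themselves, a principal component analysis was run on all 186 cells over 1000 variable genes. Component 1 held 12.1% of the variance. Its 15 leading genes at the positive end included Matn3, Hapln1, Col9a3, Epyc, Acan, Papss2, and Chst11, and at the negative end Clu, Dcn, Cilp2, Abi3bp, Col3a1, Wif1, and Prg4. The score moved with depth, with a correlation of 0.685 with log UMIs over the 186 cells, a description, since cells of a library share their source. Median scores were 7.36 in library 1 and 2.60 in library 2. Component 2 held 6.81% of the variance, with medians of -8.70 and 1.32. Its positive end held Ier5 and Ier3, immediate early response genes, with Errfi1, Gadd45g, and Mcl1, and its negative end Il17b, Matn1, Fkbp11, and C1qtnf3. The libraries were thus offset on component 2, and library and cell state cannot be told apart there.

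Split into 3 equal parts along component 1, the lowest part held 2 cells of library 1 and 60 of library 2. In library 2, Col9a3 was at 2168 CPM in the lowest part, 8410 CPM in the middle part, and 11745 CPM in the highest part. Matn3 followed the same order, at 264, 1572, and 1919 CPM. Ucma did not follow, at 1564, 2517, and 1788 CPM. Dcn was at 4579, 260, and 82.0 CPM and Igfbp7 at 5068, 1441, and 695 CPM. Col1a1, of the osteoblast list, was at 7750, 332, and 86.0 CPM, and Ibsp at 6801, 199, and 1.70 CPM. What part other cells had in the lowest part was not tested. Pgk1 was at 199.8, 607, and 1143 CPM. These parts were defined by the same genes and are a description only.

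**Figure D3:**
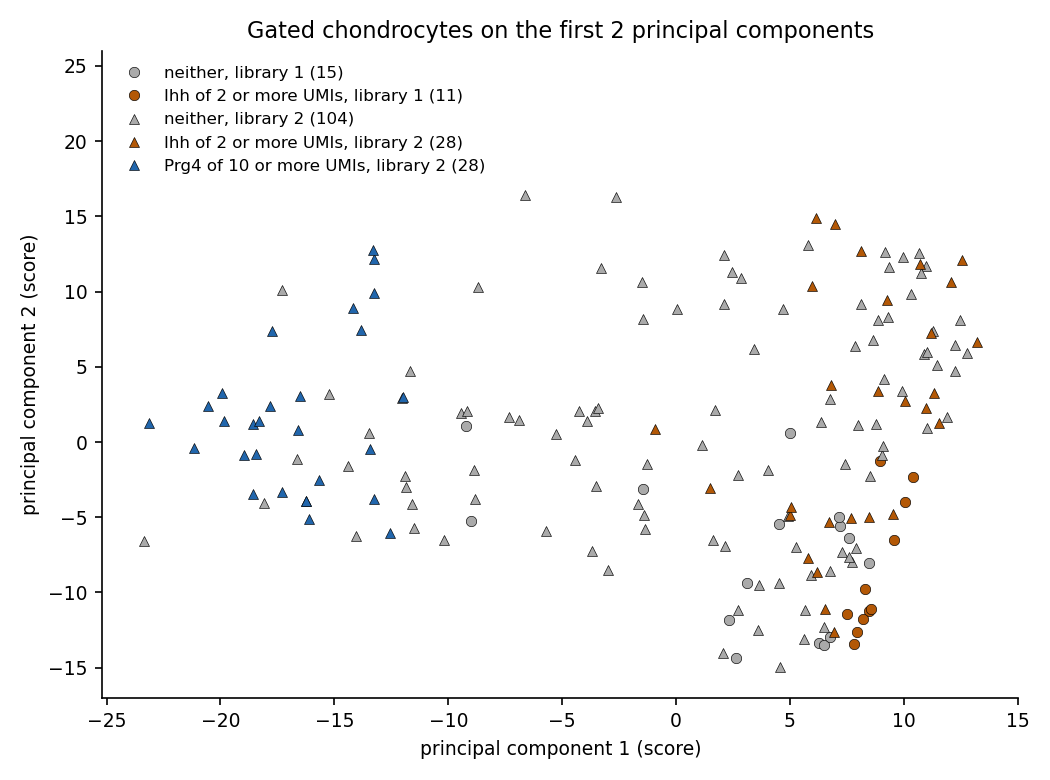
Scores of the 186 gated chondrocytes on principal components 1 and 2 (no unit), circles for library 1 and triangles for library 2. The 28 cells with Prg4 of 10 or more UMIs (blue) lie at the negative end of component 1, and the 11 and 28 cells with Ihh of 2 or more UMIs (orange) lie toward the positive end apart from single cells of library 2, the lowest at -0.933.

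Prg4 marked a set of cells seen in library 2 alone. The gene (ENSMUSG00000006014, chr1:150449412-150466165, minus strand) had 0 UMIs in all 26 gated cells of library 1, which at a limit of 3 counts allows a share of cells with a UMI of up to 11.5% (exact upper limit 13.2%) and sets no limit on cells that express it, and 25122 UMIs in library 2, where 28 of 160 cells (17.5%, 12 to 24.3) held 10 or more. The cut at 10 UMIs was chosen after the values had been seen, and the sets below are named by their counts, with no test. These 28 cells had a median of 9666.5 UMIs against 27072.5 in the other 132 gated cells of library 2. Beside Prg4 they were higher in Cytl1, a secreted cytokine-like protein of cartilage, at 6336 against 36.0 CPM (176-fold, 147 to 212). Gas1, a hedgehog coreceptor, was at 800 against 7.26 CPM, Cilp, a protein of the cartilage intermediate layer, at 949 against 9.77 CPM, and Thbs4 at 487 against 6.98 CPM. Erg, an ETS factor of the joint surface, was at 68.1 against 3.63 CPM from 20 and 13 UMIs. Clu, Dcn, Apoe, and Wif1 differed by 22.9-fold, 20.1-fold, 18.7-fold, and 16.7-fold.

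Several matrilin, collagen, and proteoglycan genes were lower in the same 28 cells. Matn3 and Matn1 had no UMI in them, against 1578 and 438 CPM in the other gated cells of library 2. Hapln1 was at 412 against 4886 CPM, Col9a3 at 895 against 9268 CPM, Acan at 408 against 2412 CPM, and Ucma at 419 against 2115 CPM. Col2a1 was at 9878 against 36395 CPM, a ratio of 0.27 (0.26 to 0.28). Comp, at 3243 against 5206 CPM, differed less. Sox9 was at 527 against 605 CPM, a ratio of 0.87 (0.74 to 1.03) whose counting interval includes 1. Pgk1, at 146 against 818 CPM, was lower as well. Prg4 was not particular to gated cells, since it was at 4073 CPM in Dcn Col3a1 cells of library 2 and 2534 CPM in those of library 1, against 6482 CPM in the gated cells of library 2. Of 12 articular and superficial genes none was called against the other cells, and 8 of the 12 had no UMI in the gated cells of library 1.

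Ihh of 2 or more UMIs was found in 11 of 26 cells of library 1 and 28 of 160 of library 2, again a cut chosen with the values in view. None of these cells had 2 or more Prg4 UMIs. They were deeper than the other gated cells, with medians of 37379 against 26874 UMIs and 31642.5 against 19436.5. Pth1r was 3.51-fold (3.11 to 3.97) and 2.70-fold (2.52 to 2.91) the level of the other gated cells. Cdkn1c was 9.72-fold (8.5 to 11.2) and 2.74-fold (2.57 to 2.92), and Smpd3, a sphingomyelinase of mineralizing cartilage, 2.08-fold and 2.65-fold. Alpl, alkaline phosphatase, was 3.29-fold and 1.5-fold, and Mef2c 2.26-fold and 1.72-fold. Hhip, which binds hedgehog ligands, was at 7.95 against 45.4 CPM in library 1, from 3 and 18 UMIs, and 12 against 52.4 CPM in library 2, from 11 and 155 UMIs, and Ptch1, the hedgehog receptor, was at 0.29-fold (0.16 to 0.48) and 0.78-fold (0.61 to 0.99) the level of the other gated cells. Runx2 ratios were 0.82 (0.52 to 1.30) and 0.98 (0.72 to 1.33). Of 8 prehypertrophic genes, Panx3 and Foxa3 were higher in all gated cells than in the other Ptprc-negative cells (0.716% of all genes were). None of the 8 was called against Col10a1-high cells.

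Pthlh of 2 or more UMIs was found in 0 of 26 and 16 of 160 cells (10.0%, 5.82 to 15.7), of which 6 also held Prg4 of 10 or more. In these 16 cells Sfrp5, a secreted Wnt antagonist, was at 331 against 41.1 CPM in the other gated cells of library 2, and Apoe at 3233 against 417 CPM. Igfbp7 was at 4923 against 1601 CPM, while Ucma, at 2255 against 1964 CPM, differed by 1.15-fold (1.06 to 1.24). Pthlh was not particular to gated cells. At 2 or more UMIs it was found in 1 of 20 Dcn Col3a1 cells of library 1 and 49 of 374 of library 2 (13.1%). Of the 10 resting zone genes, Ucma was higher than in the other Ptprc-negative cells (0.716% of all genes were), and the other 9 were not called.

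**Figure D4:**
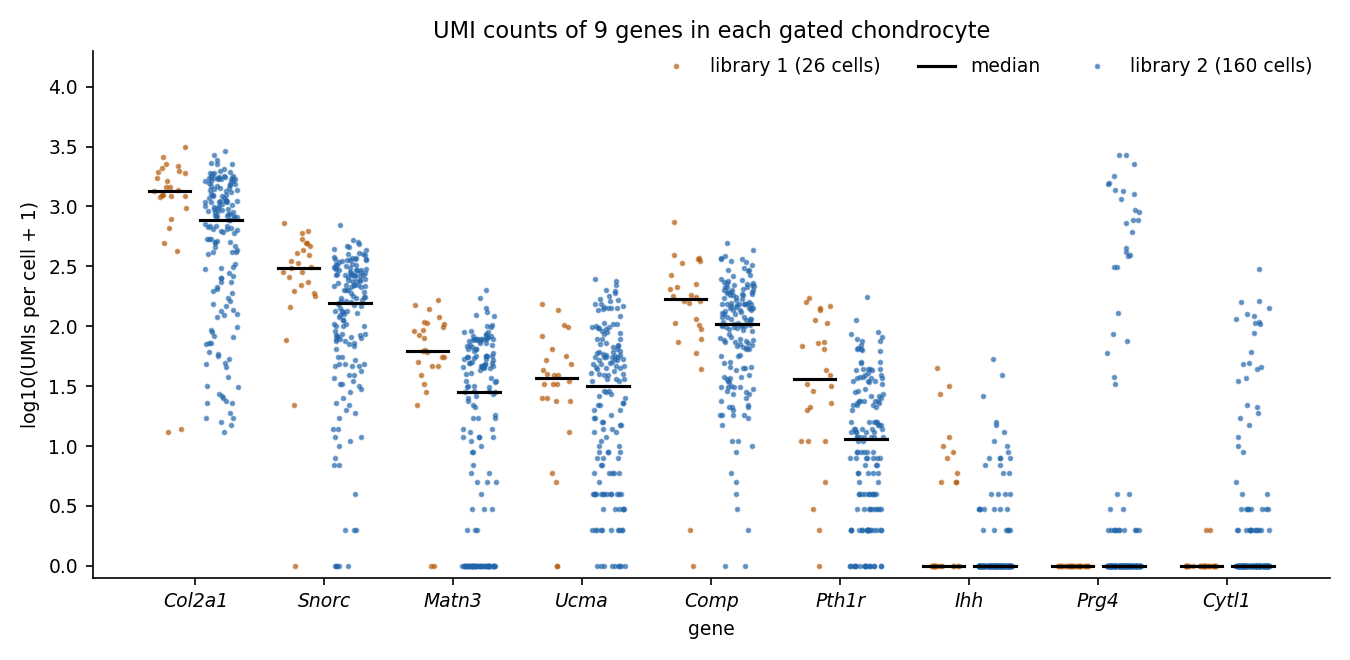
UMIs per gated chondrocyte of 9 genes as log10(UMIs + 1), 1 point per cell, orange for library 1 (26 cells) and blue for library 2 (160 cells), with black bars for medians. Col2a1 medians are 1358 and 772 UMIs, and Prg4 is at 0 in every cell of library 1 and reaches 2711 UMIs in library 2.

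Mki67 and Top2a are expressed in dividing cells. At least 1 UMI of either was found in 11 of 26 gated cells of library 1 (42.3%, 23.4 to 63.1) and 18 of 160 of library 2 (11.3%, 6.81 to 17.2), and 2 or more UMIs in 15.4% and 4.38%. The most in a single gated cell was 3 UMIs in library 1 and 31 in library 2. The gated cells were deep, so the share was also computed for a depth of 5000 UMIs in every cell, which left out 5 gated cells of library 2. It was then 10.7% and 4.27%. The other Ptprc-negative cells had 58.4% and 21.8% as measured and 73.2% and 26.3% at fixed depth, which left out 1135 of 3270 and 844 of 1954 of them, so the measured and fixed-depth shares cover different cells. Col10a1-high cells had 8.06% and 0.702%, Bglap-high cells 12.1% and 2.89%, and Dcn Col3a1 cells 5.44% and 3.40% at fixed depth. That depth left out 24 and 16 Col10a1-high cells, 1 and 13 Bglap-high cells, and 0 and 37 Dcn Col3a1 cells.

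Cells with Retnlg of 3 or more and S100a8 of 20 or more UMIs, genes of neutrophils, had been chosen to measure the background from free RNA. At fixed depth 26.4% of 486 such cells in library 1 and 19.2% of 62 in library 2 had a UMI of Mki67 or Top2a (218 and 22 cells were left out), with measured medians of 6743.5 and 7361.5 UMIs. That class itself had 2 or more UMIs of the pair in 13.8% and 14.3% of its cells, with up to 190 UMIs in 1 cell of library 1 and 37 in library 2, so it could not serve as a background without dividing cells. What part of the share in gated chondrocytes came from free RNA was not tested. In library 2 1 gated cell held 14 UMIs of Mki67 and 17 of Top2a, another 11 and 18, and another 5 and 5, cells chosen after their values were seen. In that order they held 2240, 97, and 125 Col2a1 UMIs, with component 1 scores of 5.28, -13.3, and -8.84. The second also held 314 Prg4 UMIs. Among the cells of library 1 with 2 or more UMIs of the pair, 1 held 12 Col2a1 and 0 Snorc UMIs. Whether these are dividing chondrocytes was not tested. Of 20 genes of S phase 6 were lower in the gated cells than in the other cells, and of 25 genes of G2 and M phase 9 were lower. Of all genes tested in that comparison 1.05% were lower. None of either list was higher, and all genes of both were below 0 in both libraries. Against the Col10a1-high, Bglap-high, and Dcn Col3a1 cells no gene of these lists was called, where 0.164% to 2.15% of all genes tested were called in a direction. The added 10 CPM leaves little room for a call at such low levels. The G2 and M list summed to 319 and 174 CPM in the gated cells. In Col10a1-high cells it summed to 655 and 45.0 CPM, so it kept no direction.

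**Figure D5:**
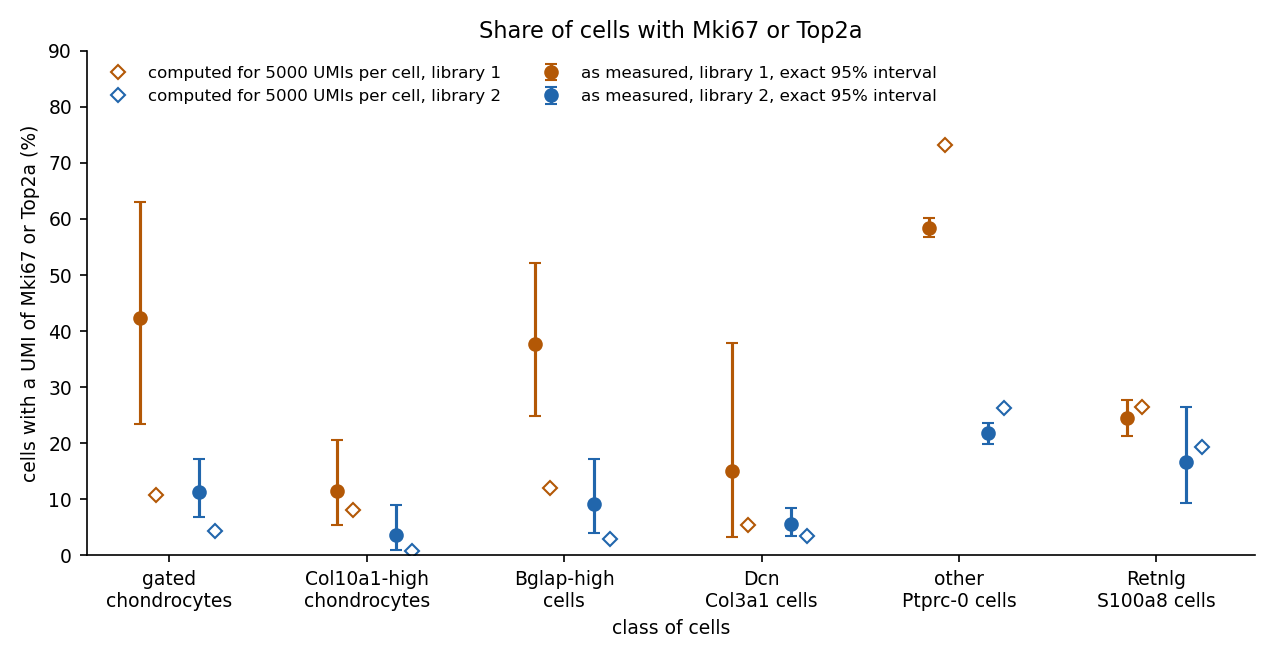
Share of cells (percent) with at least 1 UMI of Mki67 or Top2a in 6 classes, filled points as measured with exact 95% binomial intervals (counting error only), open diamonds computed for 5000 UMIs per cell, orange for library 1 and blue for library 2. Gated chondrocytes are at 42.3% and 11.3% as measured and 10.7% and 4.27% at fixed depth, where Retnlg S100a8 cells, which themselves hold cells with many UMIs of the pair, are at 26.4% and 19.2%.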

How the data were processed

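Periosteal cells of 2 libraries were measured by 10x Genomics 3′ scRNA-Seq. The authors deposited raw UMI counts per gene and barcode, made with Cell Ranger 6.1.2 on mm10 per the submitters' processing notes, without normalization or pooling. Of 32288 features, 32235 were found in GENCODE M21 and 3 are reporter sequences. Barcodes passed with at least 500 genes, at least 500 UMIs, and at most 10% mitochondrial UMIs. The gate and 3 like classes were set on raw counts, and UMIs were summed per class and library with Python 3.11.15, numpy 2.4.6, and pandas 2.3.3. The only samples are replicates of 1 condition, and the gate uses the measured counts, so no p-value was computed. Intervals are exact at 95% (scipy 1.17.1) and cover counting error only. Doublets were sought with Scrublet (scanpy 1.11.5) and no cell was removed. Components used 1000 genes detected in at least 10 gated cells, scaled to 10000 UMIs per cell and clipped at 5. TMM (edgeR 4.0.16) and DESeq2 1.42.0 size factors served as alternatives. Named genes were those of 37 lists, the 15 leading genes against other cells, the 10 leading genes each way against a like class, by the smaller absolute fold with at least 20 UMIs in the higher class, and the 15 genes at each end of components 1 and 2. Members and lists were chosen with earlier results of these data known. The code was tested on simulated data.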

Additional observations from a re-analysis of the deposited data

Results flagged for a closer look

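Transcripts of reporters were counted in gated chondrocytes of libraries labelled WT. In library 1 tdTomato had 18 UMIs in 6 of 26 gated cells, with a maximum of 11 in a cell, and EGFP had none. In library 2 tdTomato had 582 UMIs in 78 of 160 gated cells, with a maximum of 36, and EGFP had 871 UMIs in 29 cells, with a maximum of 246. Both reporters were found together in 11 gated cells of library 2. Over all barcodes EGFP had 0 UMIs in library 1 and 6967 in library 2, and tdTomato had 1528 and 4769. EGFP was at 2190 CPM in Col10a1-high chondrocytes and 884 CPM in Bglap-high cells of library 2. What the reporters mark is not given in the labels, and their source was not tested.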

How the results depend on the processing

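Adding 1 CPM in place of 10 gave 279 genes higher and 851 lower than the other cells, 101 and 213 against Col10a1-high cells, 469 and 322 against Bglap-high cells, and 287 and 879 against Dcn Col3a1 cells. Adding 50 CPM gave 48 and 38, 6 and 20, 56 and 37, and 44 and 89 in the same order. Averaging single-cell CPM gave 282 genes lower than the other cells and 43 higher and 42 lower than Col10a1-high cells, with 50.6% of those calls higher in place of 26.7%. With either library left out, so that the other alone made the call, the counts were 149 to 482 higher and 309 to 481 lower against the other cells, 51 to 102 and 74 to 155 against Col10a1-high cells, 252 to 269 and 145 to 184 against Bglap-high cells, and 168 to 236 and 320 to 653 against Dcn Col3a1 cells. The share with Mki67 or Top2a was 15.4% and 4.38% at 2 or more UMIs and 10.7% and 4.27% at 5000 UMIs per cell. Of 114 alternatives for these counts and shares, 82 stayed within 1.5 times or the counting interval, and 32 moved. Of all calls against the other cells 40.5% were higher, and this share was 52.2% with TMM, 51.9% with DESeq2 size factors, 24.7% with 1 CPM added, and 55.8% with 50 CPM added. Of 755 alternatives for 75 single-gene values, 134 moved and none changed sign. A value moved where it changed by at least the standard deviation of its log2 folds in the 2 libraries. The 75 values were those of the leading genes, picked for large folds of the same sign in both libraries. The lack of sign changes was thus largely set by that choice. TMM moved the median over all genes by 0.33 and 0.14 against Dcn Col3a1 cells. The number of cells in library 1, 26, limits all values there. Each comparison was made within a library, and a call needed both libraries. No p-value was computed for these pairs, because the gate used the counts of these same cells.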
